A study of Rattus norvegicus with 16 samples.

Results

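The mRNA of transferrin receptor 1, encoded by Tfrc, was followed in the hearts of male Wistar rats treated with doxorubicin (DOX) or saline. Neither the receptor protein nor iron uptake was measured in these libraries. Tfrc was taken as the single row with the Ensembl identifier ENSRNOG00000001766, which is 1 of the 32545 genes in the files. The files list identifiers without gene names, so the name Tfrc comes with the choice of this row and could not be checked against the values. The gene was chosen for its difference between DOX high and saline hearts in these same libraries, so that difference is described here without a test. The saline group held 10 rats and the DOX high group 6. DOX high rats received 5 weekly intravenous injections of 3 mg per kg DOX, which sum to 15 mg per kg. Saline rats received intravenous saline weekly, with 5 injections in the sample labels and 6 in the methods. All rats were 6 to 8 weeks old at the start, and their hearts were frozen at week 6. Each library was made from the polyadenylated RNA of 1 piece of whole heart tissue, in which myocytes, vessel cells, fibroblasts and blood were not separated.

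Tfrc sits on the cell surface and binds transferrin, the iron carrier of the blood. The complex is taken into endosomes, where iron is released, reduced by Steap3 and passed to the cytosol by Slc11a2, while the receptor returns to the surface. The Tfrc mRNA carries iron-responsive elements after its coding region, and the iron regulatory proteins Aco1 and Ireb2 bind these and protect the mRNA when the cell is short of iron. Heart muscle cells take up iron through this receptor and use it for heme and iron-sulfur clusters in their mitochondria. Dividing cells and maturing red blood cells are also known for high levels of this receptor, and DOX itself binds iron.

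The bases just before the annotated start of Tfrc are shown as the upstream window of the one gene described. Their activity in these hearts was not measured, and the iron-responsive elements after the coding region are not shown. RefSeq places them at chr11:81690319-81690568 on the minus strand of the rat build GRCr8, which is newer than the build Rnor_6.0 used for the counts. The stretch holds 250 bases, written 5′ to 3′ along the gene and ending at the base before the start. Capitals mark CCAAT, the hypoxia element cores ACGTG and GCGTG (the latter on the opposite strand, read here as CACGC), and the joined run of the ETS core GGAAGT and the CRE-like TGACGTAA, which overlap by their shared T.
Tfrc: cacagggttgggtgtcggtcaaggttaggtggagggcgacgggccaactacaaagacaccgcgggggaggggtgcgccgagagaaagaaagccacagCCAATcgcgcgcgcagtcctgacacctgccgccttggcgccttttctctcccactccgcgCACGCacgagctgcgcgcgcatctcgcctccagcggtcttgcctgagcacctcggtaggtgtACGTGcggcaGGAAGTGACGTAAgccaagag

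The share of G and C in this stretch was 64.8%, against a median of 51.2% over the same window of 33469 rat promoters. The CRE-like TGACGTAA, a form of the cyclic AMP response element, lay 16 to 9 bases before the start. It occurs on either strand in 0.75% of those promoters, a share not comparable with those that follow, since shorter words match more often. The ETS core GGAAGT just upstream occurs in 19.2% of them. The hypoxia core ACGTG lay 31 to 27 bases before the start and occurs in 16.6%, and GCGTG, whose match lay 93 to 89 bases before it, occurs in 25.9%. CCAAT occurs in 34% of the promoters and was found 153 to 149 bases before the start. No match was found in this window, on either strand, to the GC box GGGCGG, the Myc box CACGTG or the letters TATATA and TATAAA. These are matches of letters only, and the libraries did not measure binding.

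Fewer Tfrc fragments were counted in DOX high than in saline-treated control hearts. The 10 saline libraries held 631 to 1356 fragments of Tfrc (median 1110) and the 6 DOX high libraries 224 to 675 (median 535). DOX high libraries were on the whole deeper, with 15369246 to 18025615 counted fragments in all against 13784896 to 16842418 in saline libraries. On raw counts the groups overlapped, since DOX high rats 32 and 39 had 675 and 669 fragments and saline rat 10 had 631. With the counts scaled to depth, as below, the overlap was gone.

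Levels are given as CPM after TMM scaling. CPM brings every library to the same total, and TMM also corrects for the weight of a library's most abundant genes. In saline rats 5 to 10 Tfrc stood at 57.3, 66.3, 94.6, 78.1, 73.1 and 46.2 CPM. In saline rats 34, 35, 36 and 37 it stood at 102.7, 79.6, 56.4 and 44.3 CPM. Control hearts thus spread over a wide range, and both the highest and the lowest control were among rats 34 to 37. In DOX high rats 30, 31, 32, 33, 38 and 39 Tfrc stood at 31.7, 31.3, 28.4, 15.3, 30.3 and 37.6 CPM. Of the DOX high hearts, 5 lay close together, and rat 33 was far below them. Dixon's outlier test did not flag rat 33 (gap over range 0.588, critical value 0.625).

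**Figure D1:**
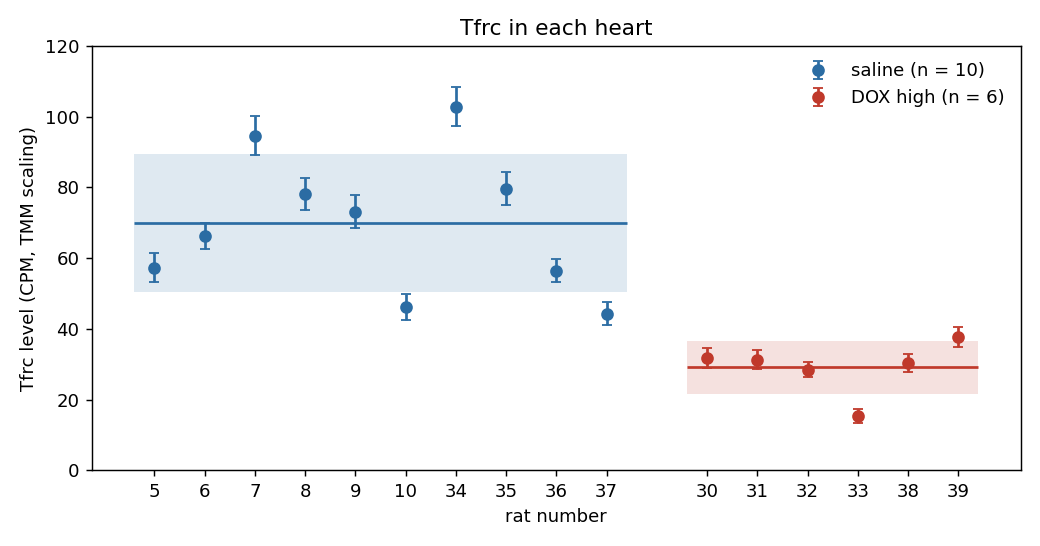
Tfrc level in each heart, in CPM with TMM scaling, by rat number. Points are single hearts with exact 95% Poisson intervals of the count, lines are group means and bands 1 SD either side. All 10 saline hearts lie above all 6 DOX high hearts, and the narrowest gap is that between saline rat 37 (44.3 CPM) and DOX high rat 39 (37.6 CPM).

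Mean Tfrc was 69.9 ± 19.5 CPM (SD, n = 10) in saline and 29.1 ± 7.43 CPM (SD, n = 6) in DOX high hearts. The saline mean was 2.40 times the DOX high mean. The fitted log2 fold change of DOX high over saline was -1.26 with a standard error of 0.21. The DOX high level was thus 41.7% of the saline level. All 6 DOX high hearts lay below all 10 saline hearts. Over the 13607 genes that passed the filter on low counts, 0.294% showed this, and 0.889% showed no overlap between the groups in either direction. Since Tfrc was chosen on this contrast, nothing is read from its being among them. Of the genes tested, 166 had a more negative log2 fold change than Tfrc. Among the 8746 genes whose average level in the edgeR fit was at least 3 log2 CPM, which leaves out low genes, 71 did. The median log2 fold change over all genes tested was -0.005, which TMM scaling places near 0 by construction. In whole tissue, fewer cells that express Tfrc and less Tfrc RNA per cell cannot be told apart. The genes that mark heart muscle, vessels, fibroblasts or blood could not be looked up by identifier, so neither the labelled tissue nor a shift in its cell types was checked.

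**Figure D2:**
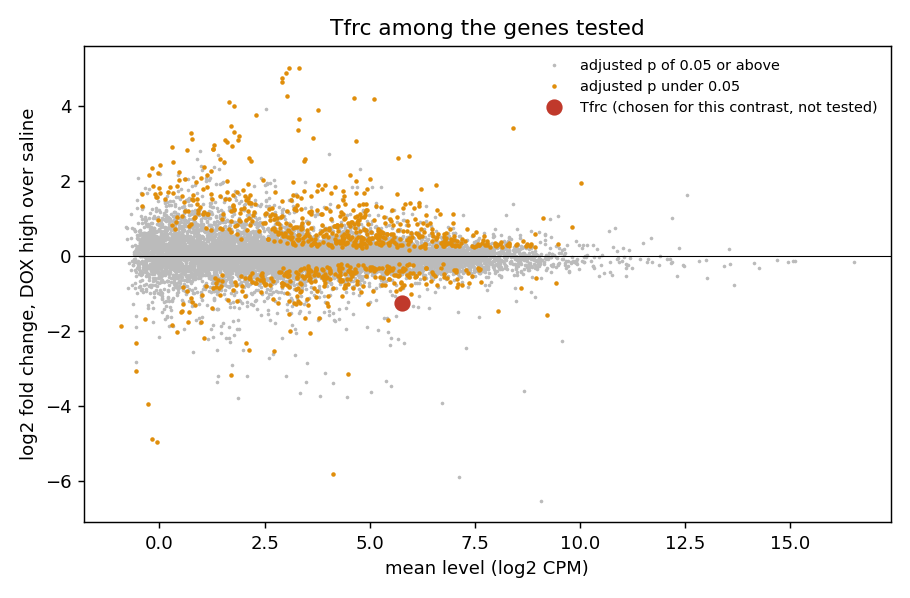
Log2 fold change of DOX high over saline (edgeR) against mean level in log2 CPM for the 13607 genes tested. Orange points passed an adjusted p of 0.05, grey points did not, and the red point is Tfrc, at -1.26 and a mean of 5.77 log2 CPM.

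Between the lowest saline and the highest DOX high heart the step was 1.18 times, or 6.68 CPM. This is much smaller than the distance between the group means, and the hearts on either side of it depend on the scaling. On CPM by library total alone, rat 10 was the lowest saline heart (45.3 CPM) and rat 32 the highest DOX high heart (37.8 CPM). On the deposited TPM values, which divide by gene length and scale each library to the same total, the same hearts met at 12.4 and 11.4 TPM. There the step was only 1.08 times. Mean Tfrc was 19.3 ± 4.96 TPM (SD, n = 10) in saline and 8.52 ± 2.62 TPM (SD, n = 6) in DOX high hearts, and the saline mean was 2.26 times the DOX high mean. With upper-quartile scaling and with the DESeq2 size factors the saline mean was 2.40 and 2.41 times the DOX high mean. On these 5 scales, all 6 DOX high hearts lay below all saline hearts, and on raw counts 4 of 6 did.

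**Figure D3:**
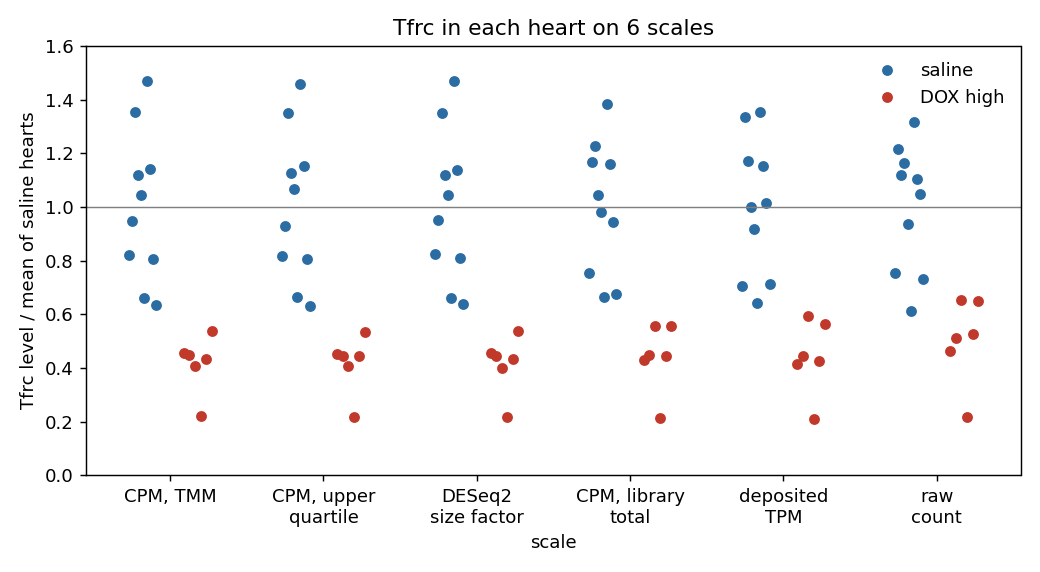
Tfrc in each heart divided by the mean of the saline hearts, on 6 scales. Points are single hearts (10 saline, 6 DOX high), and the groups stand apart on every scale but raw counts, where 4 of 6 DOX high hearts are below all saline hearts.

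Of the 16 libraries, that of DOX high rat 32 had the highest TMM factor, 1.36, and the least weight on its 10 most abundant genes, which held 18.7% of its fragments. Tfrc in this heart was 28.4 CPM after TMM and 37.8 CPM on the library total. Without rat 32, mean Tfrc in DOX high hearts was 29.2 ± 8.30 CPM (SD, n = 5). Saline rat 37 had the lowest control level after TMM but not on TPM (13.7 TPM, against 12.4 TPM in rat 10 and 13.6 TPM in rat 5). Without it the control mean was 72.7 ± 18.4 CPM (SD, n = 9).

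The Tfrc counts were large enough that counting error was small beside the spread between rats. Counting error was 2.72 to 3.98% of the level in saline libraries and 3.85 to 6.68% in DOX high libraries. The coefficient of variation between hearts was 28.0% in saline and 25.5% in DOX high hearts. Most of the DOX high spread came from 1 heart, since without rat 33 the mean was 31.9 ± 3.44 CPM (SD, n = 5) and the coefficient of variation 10.8%. On the log2 scale the SD was 0.41 in saline and 0.45 in DOX high hearts, so a heart typically lay within a much smaller distance of its own group mean than the distance between the means. The biological coefficient of variation that edgeR estimated for Tfrc was 27.3%, against 23.2% for the trend at its level. It was higher than that of 66.4% of the genes tested.

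When the 16 hearts were put in order of Tfrc CPM, the exact 95% Poisson intervals overlapped in 9 of the 15 neighbouring pairs and were separate in 6. The pairs that counting error could tell apart included the step from saline rat 37 (interval 41.2 to 47.6 CPM) to DOX high rat 39 (34.8 to 40.6 CPM). They also included the step from DOX high rat 32 (26.3 to 30.7 CPM) down to rat 33 (13.4 to 17.4 CPM). DOX high rats 30, 31, 38 and 32 could not be put in order by counting error. Among saline hearts, rats 34 and 7 at the top, rats 35, 8, 9 and 6 below them, rats 5 and 36 next and rats 10 and 37 at the bottom overlapped with their neighbours in the same set. These intervals cover counting error only and were computed after TMM scaling alone. On the deposited TPM the hearts that met were saline rat 10 (12.4 TPM, counting error 3.98%) and DOX high rat 32 (11.4 TPM, 3.85%). No intervals were computed there, so a step between the groups beyond counting error is not shown on that scale.

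Per length, Tfrc was a gene of upper middle level in control hearts and of middle level in DOX high hearts. In saline hearts its mean TPM was above that of 72.3% of the genes tested, and in DOX high hearts above that of 50.8%. Heart by heart, it ranged from above 61.8% of genes in saline rat 37 to above 80.2% in saline rat 34. In DOX high hearts it ranged from above 35.7% in rat 33 to above 57.8% in rat 39. The ratio of count to TPM gives the relative length that the authors used for each gene. For Tfrc it was 2.03 times that of the median gene and longer than that of 87.1% of the 13504 tested genes for which every library held a count.

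Rats were numbered consecutively, and the DOX high rats all fell among numbers 30 to 39, together with saline rats 34 to 37. Whether control levels of Tfrc moved with the rat number was asked within the saline group. The choice of this gene used the saline values together but not their split by number, so this comparison is not wholly independent of it. Saline rats 5 to 10 had 69.3 ± 16.9 CPM (SD, n = 6) and rats 34 to 37 had 70.8 ± 25.8 CPM (SD, n = 4). The log2 fold change of rats 34 to 37 over 5 to 10 was 0.03 with a standard error of 0.25 (edgeR quasi-likelihood test, adjusted p = 0.986 over 13413 genes). The difference in mean log2 CPM was -0.006 (two-sided exact permutation test over 210 arrangements, p = 0.995). No difference was detectable with these 10 hearts. Over all genes, 0% were called in this comparison by edgeR, and 591 had an unadjusted p under 0.05.

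Within rats 30 to 39, saline hearts had 2.43 times the mean Tfrc CPM of DOX high hearts. The fitted log2 fold change there was -1.28 with a standard error of 0.26. With the number block as a covariate it was -1.28 with a standard error of 0.25, so the size of the difference was close to that over all rats. When each of the 10 rats in this range was left out in turn, the log2 fold change lay between -1.45 (without saline rat 37) and -1.05 (without saline rat 34). When each of the 16 rats was left out of the whole fit it lay between -1.35 (without DOX high rat 39) and -1.13 (without DOX high rat 33). Every DOX high heart lay below every saline heart, so leaving out a rat could not turn the sign of this value.

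**Figure D4:**
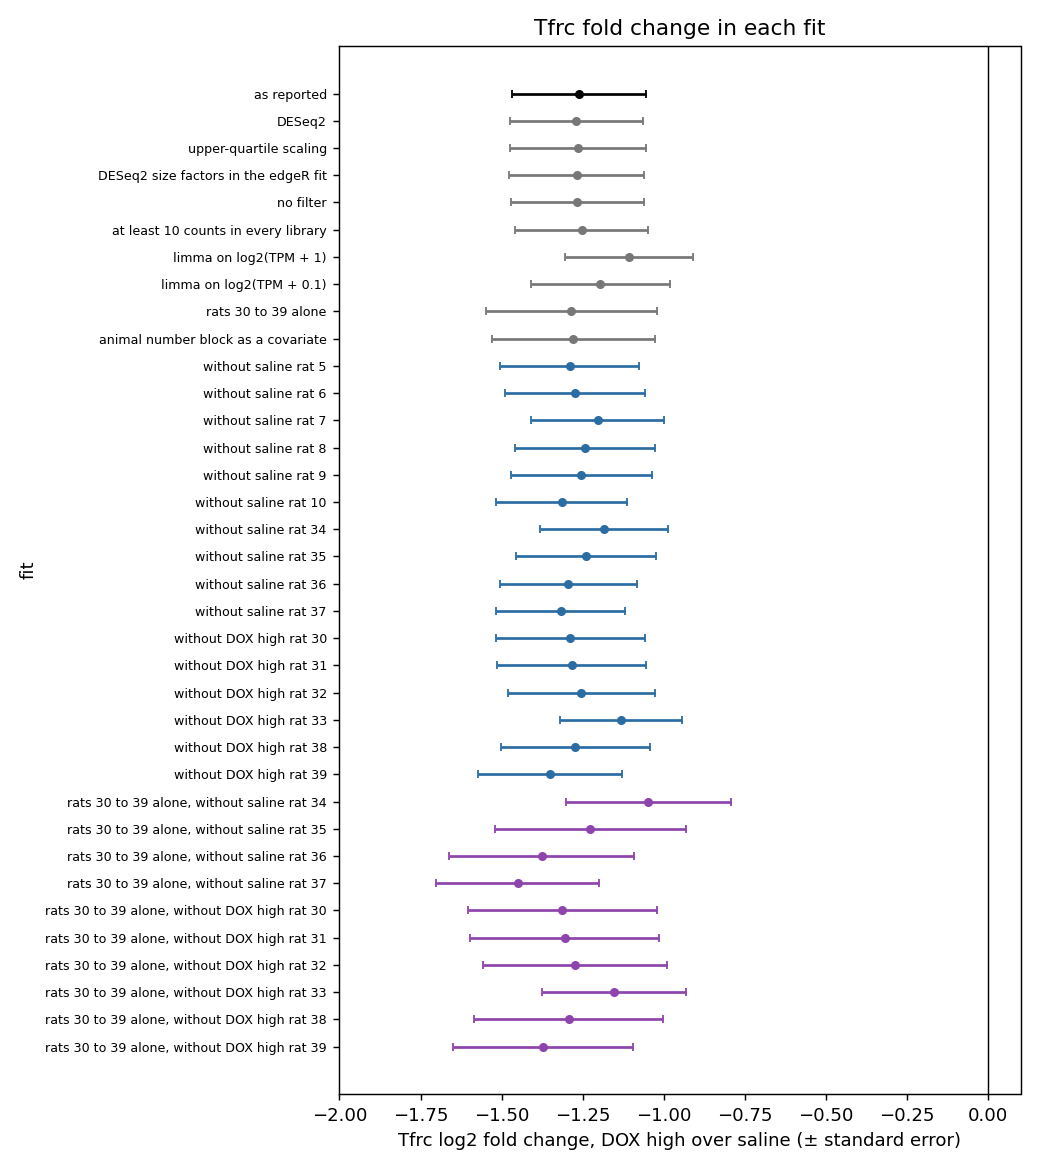
Tfrc log2 fold change of DOX high over saline with its standard error (bars) in each fit: as reported (black), under the other settings (grey), without 1 rat (blue) and within rats 30 to 39 without 1 rat (purple). The values lie between -1.45 and -1.05.

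Within each group, Tfrc was also set against 3 measures of the libraries, which were the total count, the share held by the 10 most abundant genes and the TMM factor. Among the 10 saline hearts, Pearson's r of log2 CPM with the total count was -0.35 (Spearman's rho -0.38). With the share of the 10 most abundant genes r was 0.47 (rho 0.35), and with the TMM factor it was -0.42 (rho -0.45). None of the 6 relations passed (permutation tests, adjusted over the 6, lowest p = 0.442 for r and 0.665 for rho). Without the 2 libraries farthest from the median of the measure, r in saline hearts was -0.51, 0.57 and -0.64. Among the 6 DOX high hearts r with the total count was 0.75 (rho 0.09, exact permutation p = 0.107 and 0.919) and -0.18 without the 2 farthest libraries, so the high r rested on those. It was -0.05 for the share (rho -0.03) and 0.09 for the TMM factor (rho -0.03). Without the 2 farthest libraries these were -0.26 and 0.93, each over the 4 hearts left.

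The genes whose levels followed Tfrc most closely from heart to heart were sought after the mean of each group had been taken away, so that the difference between the groups played no part. Pearson's r of log2 CPM with Tfrc was computed over the 16 hearts for the 8543 other genes whose 16 log2 CPM values averaged at least 3. This is a slightly smaller set than the 8746 above, where edgeR averaged the counts before taking the log. It was above 0.5 for 172 genes and below -0.5 for 227 genes, with a median of 0.00008. The values are a description, since the genes were picked for them and share the same 16 libraries and scaling. The files give no names for these genes, so only 2 in each direction are listed by identifier.

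The closest gene was ENSRNOG00000032703, with r = 0.83 over the 16 hearts (0.92 in saline and 0.79 in DOX high hearts). Like Tfrc, it was highest in saline rats 34 and 7 (176 and 162 CPM), and among DOX high hearts it was highest in rat 39 (114 CPM) and lowest in rat 33 (88.6 CPM). Its lowest saline heart was rat 10 (88.9 CPM) and not rat 37 (115 CPM). It stood at 133 ± 27.4 CPM (SD, n = 10) in saline and 99.7 ± 9.26 CPM (SD, n = 6) in DOX high hearts, and its log2 fold change of -0.41, with a standard error of 0.13, did not pass (edgeR quasi-likelihood test, adjusted p = 0.0645).

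ENSRNOG00000000825 came next, with r = 0.78 (0.91 in saline and 0.56 in DOX high hearts). Its level in saline hearts ran from 6.17 CPM in rat 37 to 26.6 CPM in rat 34, the same hearts as for Tfrc at both ends. In DOX high hearts it ran from 3.62 CPM in rat 33 to 11.7 CPM in rat 31. The means were 14.2 ± 6.13 CPM (SD, n = 10) in saline and 6.37 ± 3.02 CPM (SD, n = 6) in DOX high hearts, and the fitted difference was -1.15 on the log2 scale with a standard error of 0.32 (edgeR, adjusted p = 0.0430). Among all genes tested, 6.25% passed the threshold of 0.05 and 2.24% did so with a lower level in DOX high hearts. The call was lost in 11 of 16 fits without 1 rat, those without saline rats 5, 7, 8, 9, 34 and 35 and DOX high rats 30, 32, 33, 38 and 39 (adjusted p up to 0.0924).

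In the opposite direction, ENSRNOG00000008614 had r = -0.86 (-0.84 in saline and -0.90 in DOX high hearts). It varied little, between 18.5 and 23.6 CPM in saline and between 15.5 and 19.5 CPM in DOX high hearts. Tfrc, at 15.3 to 37.6 CPM in DOX high hearts, had a counting error of 3.85 to 6.68% there. How much of the small variation of ENSRNOG00000008614 was counting error was not tested. Its highest saline hearts were rats 10, 6 and 37 and its lowest was rat 34, and among DOX high hearts it was highest in rat 33, the heart with least Tfrc, and lowest in rat 39, the heart with most. Its group means, 21.02 ± 1.67 CPM (SD, n = 10) and 17.3 ± 1.42 CPM (SD, n = 6), nevertheless differed in the same direction as those of Tfrc (-0.28 on the log2 scale with a standard error of 0.07; edgeR, adjusted p = 0.0287). With the group means kept in, its r with Tfrc over the 16 hearts was 0.36. The call was lost without DOX high rat 30, 38 or 39 (adjusted p up to 0.0655). On log2(TPM + 1) it was lost too, with a difference of -0.20 and a standard error of 0.15 (limma, adjusted p = 0.606).

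ENSRNOG00000005195 had r = -0.78 (-0.86 in saline and -0.71 in DOX high hearts). Of the saline hearts it was lowest in rat 34 (271 CPM) and highest in rat 37 (459 CPM), the reverse of Tfrc at both ends. It stood at 362 ± 53.4 CPM (SD, n = 10) in saline and 474 ± 35.6 CPM (SD, n = 6) in DOX high hearts, where it was highest in rat 33 (520 CPM). The difference was 0.39 on the log2 scale with a standard error of 0.10 (edgeR, adjusted p = 0.0318), and the call was lost without saline rat 7, 8, 35 or 36 or DOX high rat 33, 38 or 39 (adjusted p up to 0.0748). On log2(TPM + 1) it was lost as well (limma, adjusted p = 0.157).

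Within rats 30 to 39, where edgeR called 0 genes (1891 had an unadjusted p under 0.05), the log2 fold changes of these genes were of like size. They were -0.43 for ENSRNOG00000032703, -1.16 for ENSRNOG00000000825, -0.25 for ENSRNOG00000008614 and 0.44 for ENSRNOG00000005195. None of the 4 passed there (edgeR, adjusted p from 0.236 to 0.289), nor with the number block as a covariate (adjusted p from 0.169 to 0.277).

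**Figure D5:**
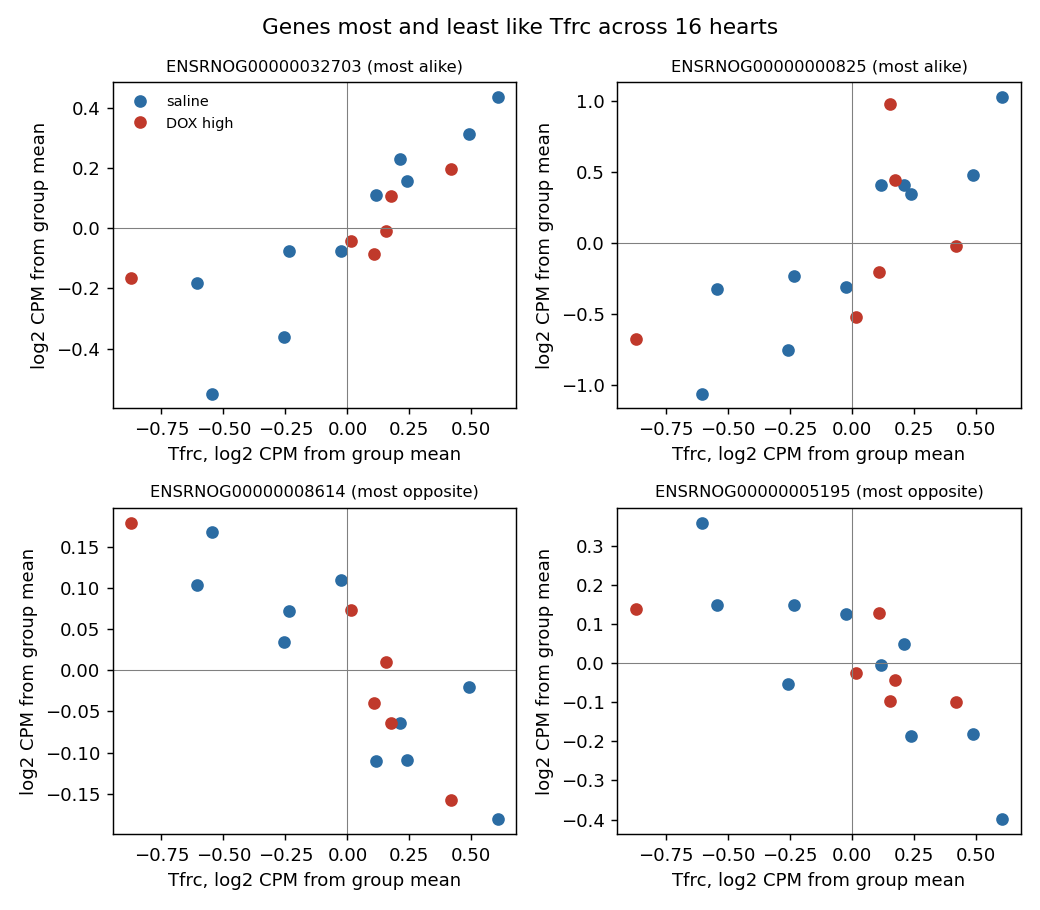
Deviation of each heart from its group mean in log2 CPM, for Tfrc (horizontal axes) and for the 2 genes most like it (top) and the 2 most opposite to it (bottom) over 16 hearts. The values of r are 0.83, 0.78, -0.86 and -0.78, and both ends are set by saline rat 34 and DOX high rat 33 for Tfrc.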

How the data were processed

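Heart RNA from 16 rats, 10 saline and 6 DOX high, was read as 75 bp pairs. HISAT2 2.0.4 (alignment, build Rnor_6.0) and featureCounts of Subread 1.5.0 (exons, Ensembl release 81) gave the deposited counts, which the authors did not normalize. Default settings do not use strand, so fragments from the opposite strand over the exons of Tfrc could not be told apart from its own. The deposited TPM values were computed by the authors in R 3.1.0 from the same counts. Each library is 1 rat, and no same-group pair differed by less than sampling noise (60 pairs, with a chi-square of at least 13.1 per degree of freedom). The paper states that whole cages of weight-matched rats were randomized to treatment. The labels do not give the cage, so the standard errors and tests treat rats as independent.

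Genes were kept by filterByExpr, scaled by TMM and fitted with edgeR 4.0.16 (glmQLFit, glmQLFTest) in R 4.3.3, without covariates, with Benjamini-Hochberg adjustment and a threshold of 0.05. A standard error is the size of the log2 fold change over the root of its F statistic. Log2 CPM used a prior count of 2. Alternatives used DESeq2 1.42.0 and limma 3.58.1. Scripts were tested on simulated data. The gene, lists and rules were chosen with earlier results of these data known. The rule for named genes was Tfrc, iron genes by symbol, and the 5 genes most and 3 least like Tfrc, or 2 each way without symbols. None of the 32545 identifiers (0) matched the RefSeq table of GRCr8, so the 17 iron, hypoxia, ferroptosis, proliferation and cell type lists were not used.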

Additional observations from a re-analysis of the deposited data

How the results depend on the processing

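In each of the 35 alternatives run for it, the log2 fold change of Tfrc moved from -1.26 by less than the SD between hearts within groups, 0.42. That limit is loose, since the standard error of the reported fit was 0.21. Leaving out 1 rat also shifts a group mean by only part of that rat's distance from it. All these fits reuse the contrast on which Tfrc was chosen, so they describe its size and do not test it. In whole fits the log2 fold change of Tfrc went from -1.11 with limma on log2(TPM + 1) to -1.28 within rats 30 to 39. In fits without 1 of the 16 rats it went from -1.35 to -1.13, and within rats 30 to 39 without 1 rat from -1.45 to -1.05. The size of the fall is understated on the log2(TPM + 1) scale. The difference between saline rats 34 to 37 and 5 to 10 never passed an adjusted p of 0.05. Its log2 fold change went from -0.20 to 0.20 in fits without 1 rat and was below 0 without rat 5 (-0.02), 10 (-0.06), 34 (-0.20) or 35 (-0.03). The r of ENSRNOG00000008614 with Tfrc turned to 0.36 with the group means kept in, where the means of both genes were lower in DOX high hearts.

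The number of genes that differ, against which the named genes were read, was 851 (3314 with an unadjusted p under 0.05). It was 1574 with DESeq2, 255 and 285 with limma on log2(TPM + 1) and log2(TPM + 0.1), 0 within rats 30 to 39 (1891 with an unadjusted p under 0.05) and 2 when the number block was a covariate (1841 with an unadjusted p under 0.05); the cause was not tested. In fits without 1 rat it lay between 345 (DOX high rat 38 left out) and 1762 (saline rat 37 left out). The count also moved strongly without saline rats 7 (402), 8 (434), 34 (517) and 36 (524) and DOX high rats 33 (436) and 39 (479). Of the genes like or opposite to Tfrc, ENSRNOG00000000825 was called in 7 of 9 whole alternative fits, ENSRNOG00000008614 and ENSRNOG00000005195 in 5 of 9 and ENSRNOG00000032703 in 1 of 9; all kept their direction. No paired analysis was possible because no rat number occurs in both groups. The correlations of Tfrc with Ireb2, Aco1, Fth1 and other iron genes across saline hearts were not run, since the files name no genes. The levels of single hearts on scales other than TMM, the library measures and leaving out rats within 30 to 39 were chosen after seeing the data.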
